A study of Mus musculus with 6 samples.

Results

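Integrins and the proteins that gather at their cytoplasmic tails were examined in whole embryonic lungs at 12.5 *dpc*. Members were taken by gene symbol, as every integrin alpha or beta subunit gene and 15 genes for core focal adhesion proteins, and 41 of the 24402 loci in the deposited table qualified. They comprise 18 alpha subunits, 8 beta subunits and the 15 cytoplasmic genes. RNA came from lungs of C57BL/6 embryos, wild type in 3 libraries and Yap-flox/flox; Shh-Cre/+ (*Yap* mutant) in 3 libraries. Cre made from the *Shh* locus acts in the lung epithelium, and the floxed *Yap* allele is left intact in the mesenchyme. The mutant embryos also carry the Cre allele at *Shh*, which the wild-type embryos lack. The authors deposited 1 FPKM value (fragments per kilobase of transcript, scaled to the mapped fragments of a library) per genotype, pooled over its libraries. Thus no spread between libraries, no depth and no test across libraries were at hand, and every difference here is a description of 2 pooled values. Because whole lungs were used, fewer cells of a type and less RNA per cell cannot be told apart.

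Integrins are paired receptors, each made of an alpha and a beta subunit, that bind extracellular matrix or other cells outside and the actin cytoskeleton inside. Talins and kindlins bind the beta tail and switch the receptor on, the ILK, PINCH and parvin complex and vinculin tie it to actin, and focal adhesion kinase, paxillin and p130Cas signal from the site. In the branching lung, epithelial cells rest on a laminin-rich basement membrane that integrins of the beta1 family bind, and adhesion to matrix is a known input to YAP.

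A locus counted as past the fold when its pooled value differed at least 1.5-fold in either direction (log2 ratio of 0.585 in size, after adding 0.1 FPKM to both values) and its mean over the genotypes was at least 1 FPKM. The mean reached 1 FPKM at 28 members and at 12716 loci in all. Past the fold in the mutants, 1 member was lower and 3 had a higher value. Over all loci that met this minimum, 3.3% were lower and 4.44% were higher. The 1 lower member was *Itga3*, and the 3 higher members were *Itga2*, *Itgb8* and *Fermt1*. With 0.712 FPKM in wild-type lungs, *Fermt1* met the minimum only through its mutant value of 1.32 FPKM. The other 24 members did not reach the fold, and the median over all 28 was 0.04 on the log2 scale, beside -0.01 over all loci. Among the 28 members, 12 had a lower and 16 a higher value in the mutants.

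**Figure D1:**
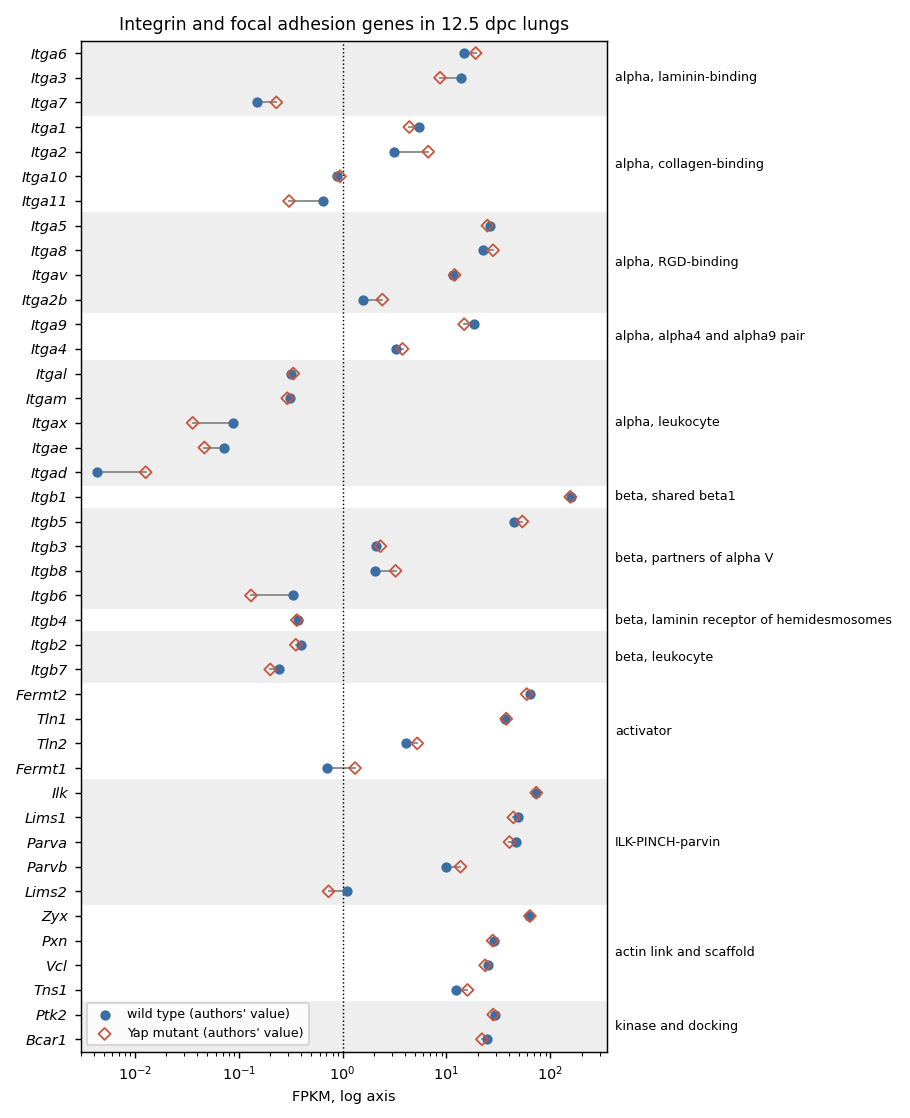
FPKM on a log axis of all 41 members in wild-type (filled circles) and *Yap* mutant lungs (open diamonds), the authors' pooled values, grouped by role at the right, with a dotted line at 1 FPKM. The symbols nearly coincide at *Itgb1*, *Ilk*, *Zyx* and *Tln1* and stand apart at *Itga2* (3.15 and 6.67 FPKM) and *Itga3* (13.7 and 8.68 FPKM). All leukocyte subunits lie left of the line, with *Itgax*, *Itgae* and *Itgad* the farthest.

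Levels covered a wide range, and the members' differences varied with level. Of the 28 members, 14 had a mean of at least 20 FPKM, and none (0) of these was past the fold, where 2.74% of other loci at that level were. Between 5 and 20 FPKM 1 of 6 members was past the fold, beside 5.48% of other loci. Between 1 and 5 FPKM 3 of 8 were, beside 18.4%, and these 3 include *Fermt1*, which met the minimum only through its mutant value. The median size of the log2 ratio was 0.10 for the 14 highest members against 0.08 for other loci of that level, 0.37 against 0.10 between 5 and 20 FPKM, and 0.46 against 0.22 between 1 and 5 FPKM. These are counts over genes and carry no replicate error.

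**Figure D2:**
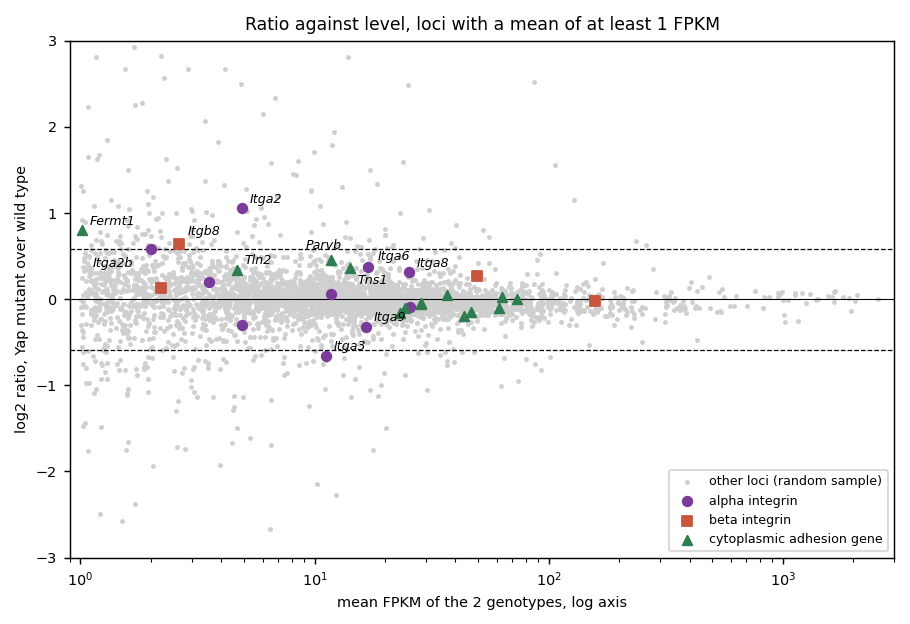
Log2 ratio of *Yap* mutant over wild-type lungs against the mean FPKM (log axis) of the 28 members (colored symbols) and of 3992 other loci drawn at random (grey, 20 of which lie beyond the axis). Dashed lines mark 1.5-fold. *Itga3* lies below the lower line, *Itga2*, *Itgb8* and *Fermt1* lie above the upper line, and *Itga2b* sits at it with 0.58.

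The members past the fold were all on autosomes, as were all 41. *Itga3* (chr11:95044482-95076791, minus strand, mm10) encodes the alpha3 subunit, an epithelial laminin receptor. *Itga2* (chr13:114833107-114932417, minus strand) encodes the alpha2 subunit of a collagen receptor. *Itgb8* (chr12:119158102-119238866, minus strand) encodes a partner of alpha V that binds latent TGF-beta. *Fermt1* (chr2:132904179-132946036, minus strand) encodes kindlin-1, the kindlin of epithelial cells. Each of these loci carries 1 symbol and overlaps the RefSeq gene of that name.

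The bases before the annotated start of *Itga3*, *Itga2* and *Fermt1* are shown because YAP acts on promoters and enhancers through TEAD factors. Those of *Itgb1* and *Vcl* are shown beside them because, unlike these, they hold the TEAD hexamer GGAATG. Each run is the 250 bases upstream of the RefSeq start, 5′ to 3′ on the gene's strand (GRCm38.p6), less any base in an annotated exon of the gene. This left 163 bases at *Itga3*, at the outer of its 2 annotated starts, and 0 at *Itgb8*, which is not shown. The run of *Itga2* lies inside the deposited locus, whose end is 317 bases from the RefSeq start. Capitals mark GGAATG or its complement, the CArG box bound by SRF, and the GC box GGGCGG or its complement.

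Itga3 (chr11:95076802-95076964, minus strand): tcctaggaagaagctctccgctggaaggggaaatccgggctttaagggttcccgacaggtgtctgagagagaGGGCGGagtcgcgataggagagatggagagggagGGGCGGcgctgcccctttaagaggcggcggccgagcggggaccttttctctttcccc

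Itga2 (chr13:114932101-114932350, minus strand): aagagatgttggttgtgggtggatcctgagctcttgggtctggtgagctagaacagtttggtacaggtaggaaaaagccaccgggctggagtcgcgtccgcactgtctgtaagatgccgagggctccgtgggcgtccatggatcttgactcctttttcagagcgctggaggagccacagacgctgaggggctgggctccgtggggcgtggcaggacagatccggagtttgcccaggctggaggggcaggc

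Fermt1 (chr2:132946037-132946286, minus strand): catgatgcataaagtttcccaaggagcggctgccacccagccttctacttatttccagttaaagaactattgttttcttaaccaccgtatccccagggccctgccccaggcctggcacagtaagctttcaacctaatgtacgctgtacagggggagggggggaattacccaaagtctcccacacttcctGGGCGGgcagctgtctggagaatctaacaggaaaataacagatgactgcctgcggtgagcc

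Itgb1 (chr8:128685404-128685653, plus strand): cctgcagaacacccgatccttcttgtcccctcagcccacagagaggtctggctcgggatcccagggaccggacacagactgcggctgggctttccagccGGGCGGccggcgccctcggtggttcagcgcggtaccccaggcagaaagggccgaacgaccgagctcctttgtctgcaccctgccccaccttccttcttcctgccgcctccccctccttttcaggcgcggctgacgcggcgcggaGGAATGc

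Vcl (chr14:20929148-20929397, plus strand): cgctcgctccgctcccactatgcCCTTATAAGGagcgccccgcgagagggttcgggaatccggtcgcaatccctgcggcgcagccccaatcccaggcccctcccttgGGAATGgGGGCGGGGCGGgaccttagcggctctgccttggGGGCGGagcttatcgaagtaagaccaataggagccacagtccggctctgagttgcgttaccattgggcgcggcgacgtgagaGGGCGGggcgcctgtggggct

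In these runs, *Itga3* holds 2 GC boxes, *Fermt1* holds 1, and *Itga2* holds no match to any of the 3 motifs. The TEAD hexamer of *Itgb1* starts 7 bases before the start site and that of *Vcl* 143 bases before it. The CArG box of *Vcl* begins 227 bases upstream, and 2 of its GC boxes overlap by 1 base. Motifs were also counted over RefSeq promoter windows of 300 bases that reach 50 bases past the start. The set of windows used covered 28 of the 41 members, without *Itga6*, *Itga7*, *Itgad*, *Itgae*, *Itgal*, *Itgb2*, *Itgb3*, *Itgb4*, *Lims2*, *Parva*, *Ptk2*, *Pxn* and *Tln2*. On either strand, GGAATG was found at 3 of 28 members (*Itga10*, *Itgb1* and *Vcl*, 10.7%) and at 16.6% of all 27025 genes. The CArG box was found at 3 members (*Fermt2*, *Itgb6* and *Vcl*) and at 1.81% of all genes. The GC box was found at 17 members (60.7%) and at 38.2% of all genes, with that of *Itga2* lying past the start. The median GC content was 60.0% over 34 windows of members and 52.7% over all 32851 windows. A match names letters in a window and is not a binding site, and the motif counts were not tested.

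The laminin-binding alpha subunits lay on opposite sides of equality. *Itga3* had 13.7 FPKM in wild-type and 8.68 FPKM in *Yap* mutant lungs, a log2 ratio of -0.66, so that the mutant value was the lower one. *Itga6*, which pairs with beta1 or beta4 and also binds laminin, had 14.8 and 19.1 FPKM, a log2 ratio of 0.37, and was the higher one in the mutants. The 2 genes were near each other in wild-type lungs, at a ratio of *Itga6* to *Itga3* of 1.07, and at 2.20 in the mutants. *Itga7*, the laminin-binding subunit of muscle, was low in both, at 0.149 and 0.230 FPKM. *Itgb4*, the beta subunit that joins alpha6 in hemidesmosomes, was also low, at 0.372 and 0.362 FPKM.

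Markers of epithelium were lower in the same comparison. Of 28 listed epithelial genes, 28 met the 1 FPKM minimum, 15 were lower and 2 were higher past the fold, their median log2 ratio was -0.60, and their summed level went from 908.4 to 771.6 FPKM. No epithelial marker was at 0. The 28 genes spread from -2.71 to 0.97, with 24 lower and 4 higher, and the log2 ratio of their sums was -0.24. *Itga3* at -0.66 lay near the median of -0.60 but below the ratio of sums. *Itga6* at 0.37 and *Fermt1* at 0.80 lay on the other side of 0. The part of epithelial content in these values was not tested.

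Collagen-binding alpha subunits also included a gene on each side. *Itga2* had 3.15 FPKM in wild-type and 6.67 FPKM in *Yap* mutant lungs, a log2 ratio of 1.06 (2.08-fold), which was the largest positive ratio of the 28 members. *Itga1*, the other collagen-binding subunit that met the minimum, had 5.43 and 4.39 FPKM and a log2 ratio of -0.30. The ratio of *Itga2* to *Itga1* was therefore 0.58 in wild-type and 1.52 in mutant lungs. *Itga10*, known from cartilage, had 0.878 and 0.944 FPKM, and 34.5% of its exon bases are shared with *Gm42957* on the same strand. *Itga11*, a receptor of mesenchymal cells for fibrillar collagen, had 0.646 and 0.306 FPKM, under the minimum in both.

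Among subunits that bind the RGD sequence of fibronectin and related ligands, the 4 members had 3 positive and 1 negative log2 ratio, and none was past the fold. *Itga5*, the fibronectin receptor subunit, had 26.4 and 24.8 FPKM (log2 ratio -0.09). *Itga8*, which binds nephronectin and is known from lung mesenchyme, had 22.6 and 28.1 FPKM (log2 ratio 0.32). The order of these 2 differed between the genotypes, with *Itga5* the highest alpha subunit in wild-type and *Itga8* the highest in mutant lungs. *Itgav*, which pairs with several beta subunits, had 11.48 and 11.99 FPKM (log2 ratio 0.06).

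*Itga2b*, the platelet fibrinogen receptor subunit, had 1.59 and 2.42 FPKM. Its log2 ratio of 0.58 fell just short of the fold, and that of *Itgb8*, 0.64, was just past it. On the side of lower values, *Itga3* was followed by *Itga9* at -0.32. Of 10 megakaryocyte and platelet markers, 4 met the minimum, none was past the fold, their summed level was 45.0 FPKM in wild-type and 40.8 FPKM in mutant lungs, and *Pf4*, a platelet chemokine, had 17.1 and 16.9 FPKM. None of these markers was at 0. *Itga9*, whose product binds tenascin and other ligands, had 18.5 and 14.8 FPKM. Its relative *Itga4*, the subunit that binds VCAM1 and fibronectin, had 3.27 and 3.77 FPKM, a log2 ratio of 0.20.

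The shared partner *Itgb1* (chr8:128685654-128733579, plus strand) was the highest member, with 158.5 FPKM in wild-type and 155.6 FPKM in *Yap* mutant lungs. Its log2 ratio was -0.03, and it turned to 0.02 when both genotypes were scaled to the same total. The alpha subunits able to pair with it summed to 121.0 and 123.9 FPKM, which is 0.764 and 0.796 of the *Itgb1* level. *Itgb1* made up 75.9% of all beta subunit FPKM in wild-type and 72.0% in mutant lungs.

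The partners of alpha V had a median log2 ratio of 0.27 over the 3 that met the minimum, and all 3 were higher in the mutants. *Itgb5* had 44.7 and 53.8 FPKM (log2 ratio 0.27) and was the second beta subunit in both genotypes, with 21.4% and 24.9% of the beta total. *Itgb8* had 2.04 and 3.24 FPKM, a log2 ratio of 0.64 (1.56-fold). *Itgb3*, shared by platelets and vessels, had 2.11 and 2.31 FPKM (log2 ratio 0.13). *Itgb6*, the epithelial partner of alpha V, was under the minimum, at 0.332 and 0.131 FPKM. Together the 4 partners were at 4.29 times *Itgav* in wild-type and 4.96 times in mutant lungs.

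Leukocyte subunits were under 1 FPKM in both genotypes, at every one of the 7 loci. The highest of them were *Itgb2* (0.397 and 0.354 FPKM), the shared beta subunit of leukocytes, *Itgal* (0.320 and 0.335 FPKM) and *Itgam* (0.312 and 0.293 FPKM), its partners on lymphocytes and on myeloid cells. The exons of *Itgam* share 70.0% of their bases with *Gm49368* on the same strand, so its value is uncertain. *Itgb7* had 0.244 and 0.201 FPKM. *Itgax*, *Itgae* and *Itgad* were at most 0.0886 FPKM. Leukocyte and macrophage markers were measurable in the same libraries, with 15 of 16 loci above the minimum, none past the fold and none at 0, and sums of 98.1 and 105.5 FPKM.

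**Figure D3:**
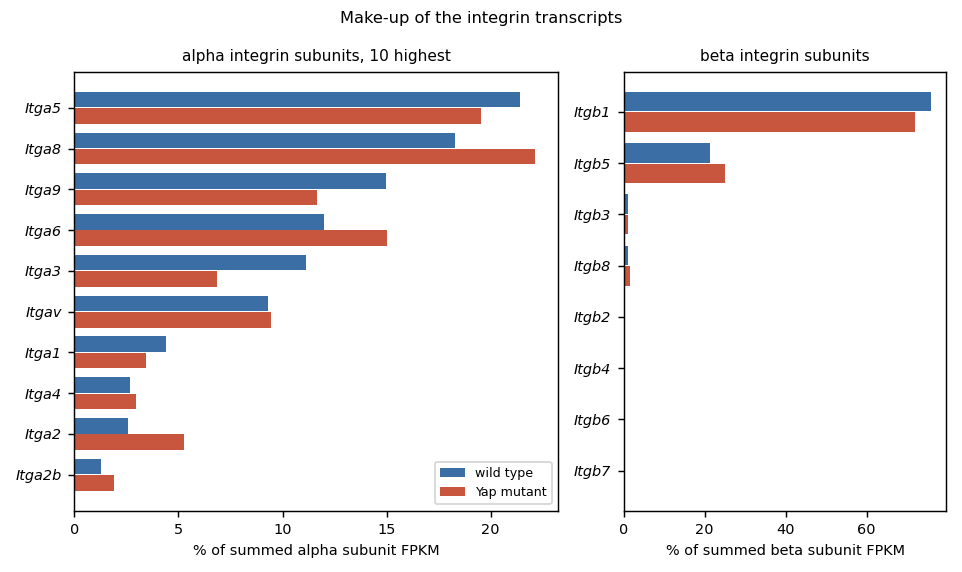
Share of each subunit in the summed FPKM of alpha subunits (left, the 10 highest) and beta subunits (right, all 8) in wild-type (blue) and *Yap* mutant lungs (red). *Itga8* went from 18.3% to 22.1% and *Itga3* from 11.1% to 6.84% of the alpha total, and *Itgb1* held 75.9% and 72.0% of the beta total.

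As shares of all alpha subunit FPKM, the differences between genotypes were a few percentage points. *Itga3* dropped by 4.3 percentage points, the most of the alpha subunits, and *Itga9* followed with 15.0% and 11.7%. *Itga8* gained 3.84 points, *Itga6* 3.08 points, from 11.97% to 15.04%, and *Itga2* 2.7 points, from 2.55% to 5.25%. *Itga2* ranked 9 among 18 alpha subunits in wild-type and 7 in mutant lungs, and *Itga3* ranked 5 and 6. The sum over all alpha subunits was 123.4 and 127.0 FPKM, and over all beta subunits 208.7 and 216.0 FPKM.

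Among the activators, the widely expressed forms had close values and the minor forms were higher in the mutants. *Fermt2*, which encodes kindlin-2, had 63.5 and 59.2 FPKM (log2 ratio -0.10). *Fermt1* had 0.712 FPKM in wild-type and 1.32 FPKM in mutant lungs, a log2 ratio of 0.80 (1.75-fold), with a mean of only 1.015 FPKM. *Tln1*, the main talin gene, had 36.3 and 37.6 FPKM (log2 ratio 0.05). *Tln2*, the second talin gene, had 4.10 and 5.23 FPKM (log2 ratio 0.34). The ratio of *Fermt2* to *Fermt1* was 89.1 in wild-type and 44.9 in mutant lungs, and that of *Tln1* to *Tln2* was 8.85 and 7.19.

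The ILK, PINCH and parvin genes spread around equality. *Ilk*, encoding the integrin-linked pseudokinase, had 73.2 FPKM in both genotypes, a log2 ratio of 0.00. Its annotated exons share 81.7% of their bases with exons of *Taf10* on the other strand, and the sources used here do not say whether counting used the strand, so its reads cannot be told apart from those of *Taf10*. *Lims1*, which encodes PINCH1, had 48.8 and 44.1 FPKM (log2 ratio -0.14), and its counterpart *Lims2* had 1.09 and 0.733 FPKM with a mean under 1 FPKM. The parvins, adaptors that join ILK to actin, were on opposite sides. *Parva* had 46.3 and 40.5 FPKM (log2 ratio -0.19) and *Parvb* had 9.94 and 13.6 FPKM (log2 ratio 0.45). Their ratio was 4.66 in wild-type and 2.97 in mutant lungs.

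Structural and signaling genes of the focal adhesion had values close to each other in both genotypes, and none was past the fold. *Zyx*, encoding zyxin, had 62.3 and 63.6 FPKM (log2 ratio 0.03). *Vcl*, encoding vinculin, had 25.4 and 23.6 FPKM (log2 ratio -0.11), and 39.7% of its exon bases overlap *Ap3m1* on the other strand. *Pxn*, the paxillin gene, had 28.9 and 27.9 FPKM (log2 ratio -0.05). *Tns1*, for the actin-binding adaptor tensin-1, had 12.4 and 15.9 FPKM and the largest ratio of these genes, 0.36. *Ptk2*, encoding focal adhesion kinase, had 29.0 and 28.2 FPKM, a log2 ratio of -0.04 that became 0.00 when the totals were made equal. *Bcar1*, encoding p130Cas, had 24.47 and 21.96 FPKM (log2 ratio -0.16). Over the 14 cytoplasmic genes that met the minimum the median was -0.02, with 7 lower and 7 higher, and over the 14 such integrins it was 0.16, with 5 lower and 9 higher.

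Ligands of the integrins differed more widely than the receptors. Of 41 listed ligand loci, 36 met the minimum, 7 were lower and 6 were higher past the fold, and the median log2 ratio was -0.05. Beside them, 3.3% of all loci were lower and 4.44% were higher. Some laminin chains of the epithelial basement membrane, ligands of the alpha3 and alpha6 integrins, were among the lower ones. *Lamb3* had 4.49 and 1.03 FPKM (log2 ratio -2.02) and *Lama3* had 4.62 and 2.25 FPKM (-1.01). *Lama5*, the alpha chain of the main epithelial basement membrane laminins, had 16.5 and 10.3 FPKM (-0.68). Other laminin chains did not reach the fold, among them *Lamc1* with 70.65 and 56.05 FPKM (-0.33) and *Lamb1* with 60.04 and 52.58 FPKM (-0.19). The epithelial marker median was -0.60, and the log2 ratio of the markers' sums was -0.24. The part of epithelial content in the laminin values was not tested.

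Other ligands past the fold lay on both sides. *Egfl6*, an RGD-bearing matrix protein that binds alpha8 beta1, had 9.82 and 23.7 FPKM (log2 ratio 1.26). *Fras1*, a basement membrane protein, had 6.69 and 12.02 FPKM (0.84), *Postn* (periostin) had 14.9 and 25.0 FPKM (0.74), and *Lama2*, the muscle laminin chain, had 2.87 and 4.73 FPKM (0.70). *Icam1*, a ligand of leukocyte integrins, had 5.13 and 2.33 FPKM (-1.11), and *Cyr61*, a matricellular ligand and known YAP target, had 8.82 and 5.18 FPKM (-0.76).

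**Figure D4:**
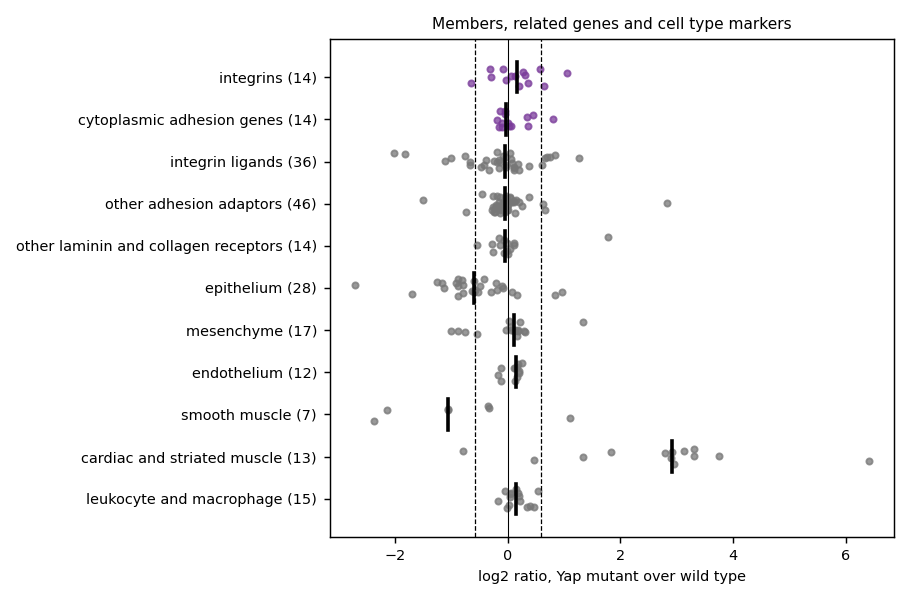
Log2 ratio of *Yap* mutant over wild-type lungs for each gene that met the 1 FPKM minimum in the member groups (purple), 3 related lists and 6 marker lists (grey). Black bars are medians, dashed lines mark 1.5-fold and the number of genes is in brackets. The member medians lie at 0.16 and -0.02, that of epithelium at -0.60, smooth muscle at -1.06 and cardiac and striated muscle at 2.92.

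Other adaptors of adhesion sites gave 2 lower and 3 higher loci past the fold among 46, with a median of -0.05. The shares over all loci that met the minimum were 3.3% lower and 4.44% higher. *Nedd9*, a relative of p130Cas, had 30.0 and 10.6 FPKM (log2 ratio -1.50), while its relatives *Bcar1* and *Efs* (17.3 and 15.9 FPKM) did not reach the fold. *Fblim1*, encoding migfilin, which binds kindlin and filamin, had 45.9 and 27.6 FPKM (-0.73). *Pdlim5* had 6.44 and 10.3 FPKM (0.67) and *Sorbs2* had 3.72 and 5.82 FPKM (0.63), both genes of Z-disc proteins. *Itgb1bp2*, encoding melusin, a muscle protein that binds the beta1 tail and is X-linked, had 0.470 and 3.94 FPKM (2.83). It met the minimum only through its mutant value.

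Most heart markers were higher in the mutant samples as well. Of 17 genes listed for cardiac and striated muscle, 13 met the minimum, and 11 were higher and 1 was lower past the fold. The median log2 ratio was 2.92 and the sum was 143.7 FPKM in wild-type and 1040 FPKM in mutant lungs. Some of the higher ones were under 1 FPKM in wild-type lungs and met the minimum only through their mutant values. The lower one was *Myog*, a regulator of skeletal muscle, with 1.51 and 0.826 FPKM (log2 ratio -0.80), and *Acta1*, the skeletal muscle actin gene, did not reach the fold, with 1.90 and 2.68 FPKM (0.47). The part of these tissues in the values of *Itgb1bp2*, *Pdlim5*, *Sorbs2* and *Itga7* was not tested. Smooth muscle markers were mostly lower, with 4 of 7 past the fold in that direction, 1 higher and a median of -1.06.

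Non-integrin receptors for laminin and collagen had 1 of 14 loci past the fold. This was *Cd44*, the hyaluronan receptor, with 5.30 and 18.6 FPKM (log2 ratio 1.79). Of the 14, 9 were lower and 5 higher. The lowest ratio was that of *Bcam*, encoding a laminin alpha5 receptor, with 47.8 and 32.8 FPKM (-0.54), short of the fold. The tetraspanin gene *Cd151*, whose product binds alpha3 and alpha6 integrins, had 33.6 and 30.1 FPKM (-0.16). Of 4 hemidesmosome loci that met the minimum, 1 was past the fold, *Krt14*, with 0.884 and 1.84 FPKM (0.98). *Krt14* met the minimum only through its mutant value. Over all loci that met the minimum, 3.3% were lower and 4.44% were higher past the fold.

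*Yap1* itself (chr9:7932001-8004596) had 76.1 FPKM in wild-type and 65.6 FPKM in *Yap* mutant lungs, a log2 ratio of -0.21 over the whole locus of a tissue whose mesenchyme keeps the gene. Y-linked *Ddx3y* had 0.0163 and 10.2 FPKM and *Xist* 97.0 and 50.4 FPKM, so the pooled samples also differed in the sex of their embryos. None (0) of the members lies on X or Y, and the part of sex in their values cannot be told apart from genotype here. The remaining marker lists had medians of 0.11 (mesenchyme, with 3 of 17 lower and 1 higher past the fold), 0.15 (endothelium, 0 of 12), 0.12 (erythroid, 1 higher of 9), 0.31 (mesothelium, 0 of 6) and -0.51 (neural and glial, 3 lower of 8). For comparison, 3.3% of all loci were lower and 4.44% were higher past the fold.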

How the data were processed

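Total RNA from whole lungs at 12.5 *dpc* was sequenced by the authors as 6 paired-end libraries prepared with a strand-specific kit, 3 per genotype. Per the submitters' processing notes, TopHat and Cuffdiff were used on mm10, and the methods name the Maverix platform. The sources used here give neither versions nor normalization options. The authors' deposited table of all loci holds 1 FPKM value per genotype, pooled over its libraries. Its fold change and p columns, and the second table, of loci that the authors selected, hold the authors' own comparison and were not used. Depth per library is unknown, which limits the precision of every value.

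Log2 ratios were computed as log2(FPKM + 0.1), *Yap* mutant minus wild type, which understates differences of low genes. A minimum mean of 1 FPKM and a fold of 1.5 were applied to all loci. The calculation was tested on simulated data with known ratios. Locus starts count from 0, so 1 was added; all 41 members overlapped the RefSeq gene of their name on GRCm38. Exon overlaps were taken from the GENCODE basic annotation. Motifs were searched in RefSeq promoter windows, and bases in GENCODE exons of the gene were left out of the printed runs. Planned protein features were not analysed here. Members and lists were chosen with earlier results of these data known, and the CArG and GC box motifs after the values were seen. Named are all members, the up to 10 largest ratios past the fold in each related list (1 of the ligands is not reported here), *Yap1*, and a few genes beside them (*Efs*, *Cd151*, *Pf4*, *Myog*, *Acta1*, *Ddx3y*, *Xist*) chosen after their values were seen. Marker lists covered epithelium, mesenchyme, endothelium, smooth muscle, cardiac and striated muscle, platelets, leukocytes, erythroid cells, mesothelium and neural cells. Python 3.11.15 with numpy 2.4.6, pandas 2.3.3 and matplotlib 3.10.9 was used. The alternatives were other folds, pseudocounts, minimum means and scalings.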

Additional observations from a re-analysis of the deposited data

How the results depend on the processing

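Without values per library, leaving out a replicate was not possible, and no paired analysis was possible because the deposited values are pooled by genotype. Counts near the fold moved with the settings. Shares over all loci are given only for the main setting, so the counts below have no background beside them. At a limit of 0.32 on the log2 scale 8 members were higher and 1 lower, and at 2-fold 1 was higher (*Itga2*) and 0 were lower. With a pseudocount of 1 FPKM 1 member was higher, with *Itgb8* and *Fermt1* no longer past the fold. Without a minimum mean 3 were lower (*Itga3* with *Itga11* and *Itgb6*), and with a minimum of 5 FPKM 0 were higher. With a pseudocount of 0.01 FPKM or totals made equal, 4 were higher, now with *Itga2b*. *Itga3* was lower past the fold under every alternative but 2-fold, and *Itga2* was higher under all but the minimum of 5 FPKM. The members' median lay between -0.03 and 0.08. Of 28 log2 ratios of members, 24 moved by less than 0.1 with a pseudocount of 1 FPKM and 28 did under each other pseudocount or scaling. Making totals equal adds 0.04 to each ratio, so the signs of *Itgb1* and *Ptk2* turned. Depth is unknown, so how far it limits each value cannot be given.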
